A study of Homo sapiens with 6 samples.

Results

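The mature miRNAs of the miR-23a/27a/24-2 and miR-23b/27b/24-1 clusters were compared between whole Müller glial cells and the extracellular vesicles (EV) that these cells released. The members were the 9 listed products of these 2 clusters, matched by name among the 2576 mature miRNAs of each deposited count table. Of these, 5 were 3p strands (hsa-miR-23a-3p, hsa-miR-23b-3p, hsa-miR-24-3p, hsa-miR-27a-3p and hsa-miR-27b-3p) and 4 were 5p strands (hsa-miR-23a-5p, hsa-miR-24-2-5p, hsa-miR-27a-5p and hsa-miR-27b-5p), and the species prefix is left out from here on. The 3 whole cell libraries (replicates 1 to 3) were from MIO-M1 cells of passage 22, passage 24 and passage 26. The 3 libraries of secreted EV, likewise numbered by passage, were from passage 23, passage 25 and passage 27. MIO-M1 is an established human Müller glial line, labelled as wild type. Every sample came from this single line, grown in DMEM with fetal calf serum. For EV, the medium was replaced by serum-free medium per the labels, or vesicle-depleted medium per the methods, and the conditioned medium was centrifuged in steps. RNA was isolated with different kits from cell pellets and from EV pellets, so that the kit and the source cannot be told apart. The passages differ between all samples, which the methods take as biological replicates of the line, and p-values measure the spread between these samples.

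miRNA clusters of this kind are transcribed as 1 primary RNA, from which each hairpin is cut out and then trimmed to a duplex. A strand of the duplex is loaded into the silencing complex, usually the 3p strand for these hairpins, and its seed, bases 2 to 8, selects target mRNAs. miR-23a and miR-23b are known for repressing glutaminase, miR-27a and miR-27b for their action in lipid metabolism and adipogenesis, and miR-24 for repressing cell cycle genes. In the eye, miR-23 and miR-27 are known as regulators of vessel growth, including choroidal neovascularisation.

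The sequences of the 3p strands show which members share a target seed, given in capitals. They are credited to RefSeq (GRCh38.p14), which held all 9 members, and run 5′ to 3′.
miR-23a-3p: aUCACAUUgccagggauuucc
miR-23b-3p: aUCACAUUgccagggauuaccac
miR-27a-3p: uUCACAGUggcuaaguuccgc
miR-27b-3p: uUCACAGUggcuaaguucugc
miR-24-3p: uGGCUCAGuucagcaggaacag

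miR-23a-3p and miR-23b-3p had the same seed and matched at 20 of 21 aligned bases, with U19A as the only substitution (the base of the a form, the position from 1 at the 5′ end, and the base of the b form) and 2 further bases at the 3′ end of miR-23b-3p. In the deposited annotation miR-23b-3p spanned 21 bases, the same as miR-23a-3p, against 23 in RefSeq. miR-27a-3p and miR-27b-3p also matched at 20 of 21 bases, with C19U as the only substitution. A read that stops before base 19 fits both forms of a pair, so the split of counts between a and b forms is uncertain to that extent. Among the mature miRNAs of the tables with a RefSeq sequence, miR-23c was the only other one with the seed of miR-23 and none other had the seed of miR-27 or of miR-24-3p. miR-128-3p carries the 7 bases of the miR-27 seed at its first 7 positions. These relatives are shown for that overlap, with their own bases 2 to 8 in capitals.
miR-23c: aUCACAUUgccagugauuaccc
miR-128-3p: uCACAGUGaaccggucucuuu

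The miR-23a/27a/24-2 hairpins lie within 373 bases on the minus strand of chromosome 19, within exon sequence of AC020916.1, a non-coding transcript in GENCODE 29 (GRCh38), a locus that RefSeq names MIR23AHG. Their 3p strands are at chr19:13836595-13836615 for miR-23a-3p, chr19:13836447-13836467 for miR-27a-3p and chr19:13836289-13836310 for miR-24-3p. The miR-23b/27b/24-1 hairpins lie within 881 bases on the plus strand of chromosome 9, inside the protein-coding gene C9orf3, which RefSeq names AOPEP. MIR23B and MIR27B are in introns of all 7 transcripts that span them, and MIR24-1 overlaps an exon in 1 of 7. Here the 3p strands are at chr9:95085265-95085287 for miR-23b-3p, chr9:95085505-95085525 for miR-27b-3p and chr9:95086064-95086085 for miR-24-3p. miR-24-3p is identical from both loci, and its count does not tell the clusters apart. The deposited tables carry positions of an unnamed genome build, which were not used for these intervals.

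The libraries held 396025 to 3990900 counts in whole cells and 1225541 to 3134561 counts in EV, and every level below is in CPM, the count scaled to a library total of 1000000. Where no read was counted, up to 3 counts remain possible, which is 0.752 to 7.58 CPM over the 6 libraries, and this limit covers counting error only. Levels of different mature miRNAs were set side by side without a length correction, since a read covers a whole mature strand. EV against whole cells was tested with edgeR's quasi-likelihood test on the 430 miRNAs that reached 5 CPM in 3 or more libraries, with Benjamini-Hochberg adjustment over all of them. In such bulk libraries, a change in the number of cells or vesicles and a change in the RNA that each holds cannot be told apart. The 6 libraries differed in how many miRNAs had a count, 586, 1058 and 811 in whole cells and 431, 427 and 329 in EV by replicate, and the EV libraries were the lower ones although only whole cell replicate 2 was deeper than EV replicate 3. Whole cell replicate 1, the shallowest library, had the highest level of each 3p strand among the whole cell libraries. All of 4 Müller glia markers (miR-204-5p, miR-9-5p, miR-125b-5p and let-7a-5p) were counted in every library. Their summed level was 236900 to 290100 CPM in whole cells and 125100 to 168800 CPM in EV, and 1 of 4 was called, miR-204-5p, which fell by 1.90 on the log2 scale (edgeR, adjusted p = 0.00872). Of 4 retinal neuron markers, miR-124-3p was at 0 in every library, miR-182-5p and miR-183-5p were counted in all of them and rose in EV by 2.26 and 2.07 on the log2 scale (edgeR, adjusted p = 0.00872 and 0.0171), and miR-96-5p was not called.

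Members with the miR-23 seed were lower in EV and 1 with the miR-27 seed was higher. miR-23b-3p fell by 1.41 on the log2 scale and miR-27a-3p rose by 1.82, while miR-23a-3p, miR-24-3p and miR-27b-3p did not pass an adjusted p of 0.05. Of the 9 members, 7 passed the filter on low counts, and 2 of those 7 were called, 1 higher and 1 lower. Over all 430 miRNAs kept, 28.6% were called at an adjusted p below 0.05, 14.7% higher and 14.0% lower in EV, so the share of members called, 28.6%, was that of the background. DESeq2 called 3 of 7 members, against 34.7% of all. The CPM ranges of EV and whole cells were separate for 3 of 7 members, 2 of them lower in EV, against 48.4% of all miRNAs kept, 27.9% lower and 20.5% higher. The study's stricter limits were a log2 fold change of 2.5 or more in either direction together with an adjusted p under 0.01. In edgeR they were met by 0 of 7 members and by 5.81% of all miRNAs kept. The study's own list, from DESeq2, also holds miRNAs short of that fold limit, among them miR-23b-3p at -1.66. The median log2 fold change was -0.66 over the 7 members and -0.23 over all miRNAs kept.

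miR-23a-3p was the most abundant member in each whole cell library. Its level was 18330 CPM, 12170 CPM and 8748 CPM in whole cell replicates 1, 2 and 3, and 6060 CPM, 8722 CPM and 4921 CPM in EV replicates 1, 2 and 3. Every EV library lay below every whole cell library, although EV replicate 2 and whole cell replicate 3 nearly met. On the log2 scale the difference was -0.97 (standard error 0.31), and edgeR's adjusted p of 0.0516 was just short of the threshold. DESeq2 gave -1.22 with an adjusted p of 0.00924, and over all the alternatives the adjusted p ran from 0.00924 to 0.377. By count it ranked 14, 19 and 22 among the miRNAs of the whole cell libraries and 24, 23 and 33 in EV.

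miR-23b-3p, its paralogue from chromosome 9, was lower in EV with a wider gap. It had 8535 CPM, 5395 CPM and 4350 CPM in the whole cell libraries and 2335 CPM, 2612 CPM and 1763 CPM in the EV libraries, in the order of the replicates. The lowest whole cell library was thus well above the highest EV library. In edgeR the difference was -1.41 on the log2 scale with a standard error of 0.30 and an adjusted p of 0.0120, and in DESeq2 it was -1.66. The call was lost without whole cell replicate 2, at an adjusted p of 0.0595. It was also lost on removal of the trend on GC content, at -0.81 and an adjusted p of 0.0903, in a fit that moved the median of all miRNAs tested from -0.23 to 0.36. Relative to that median, miR-23b-3p was at -1.18 in the main fit and at -1.17 in the other. The Müller glia markers were lower in sum in EV, a sum made up mostly of let-7a-5p and miR-125b-5p, neither of which was called. Among them, miR-9-5p went the other way, at 1.06 on the log2 scale (edgeR, adjusted p = 0.15). The part of these markers in the result for miR-23b-3p was not tested.

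miR-27a-3p went the other way. It was the least abundant of the 3p strands in whole cells, with 1409 CPM, 595 CPM and 512 CPM, and had 1931 CPM, 2678 CPM and 3711 CPM in EV. Every EV library was above every whole cell library, and whole cell replicate 1 was the closest to them. edgeR gave a log2 fold change of 1.82 with a standard error of 0.43 and an adjusted p of 0.0172. Its rank moved from 60, 96 and 98 in the whole cell libraries to 53, 54 and 41 in EV. The call depended on the scaling and on single libraries, and 8 of 14 alternatives kept it. DESeq2 gave 1.53 with an adjusted p of 0.015. In edgeR the adjusted p was 0.0541 with RLE factors and 0.0542 with upper-quartile factors, and it ran up to 0.0796, without whole cell replicate 3. The call was also lost without whole cell replicate 2 (adjusted p = 0.0756), EV replicate 2 (0.0591) or EV replicate 3 (0.0519).

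miR-27b-3p, which differs from miR-27a-3p by C19U, did not pass the test. Its level was 9504 CPM, 4397 CPM and 3861 CPM in whole cells and 5650 CPM, 7763 CPM and 10770 CPM in EV. The groups overlapped through whole cell replicate 1, which was above EV replicates 1 and 2. Its log2 fold change in edgeR was 0.53, with a standard error of 0.39 and an adjusted p of 0.397. In EV replicate 3 it ranked 14, higher than any other member there.

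miR-24-3p, the product common to the clusters, had 11760 CPM, 7336 CPM and 6308 CPM in whole cells and 3311 CPM, 9327 CPM and 3778 CPM in EV. EV replicate 2 stood among the whole cell libraries, whereas the other EV libraries were below all of them. edgeR's estimate on the log2 scale was -0.66, with a standard error of 0.38 and an adjusted p of 0.268. Without EV replicate 2 it was -1.25, with an adjusted p of 0.0497, and on removal of the GC trend it was 0.71, with an adjusted p of 0.345. Relative to the median of all miRNAs tested, it was at -0.43 in the main fit and at 0.35 without the GC trend.

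**Figure D1:**
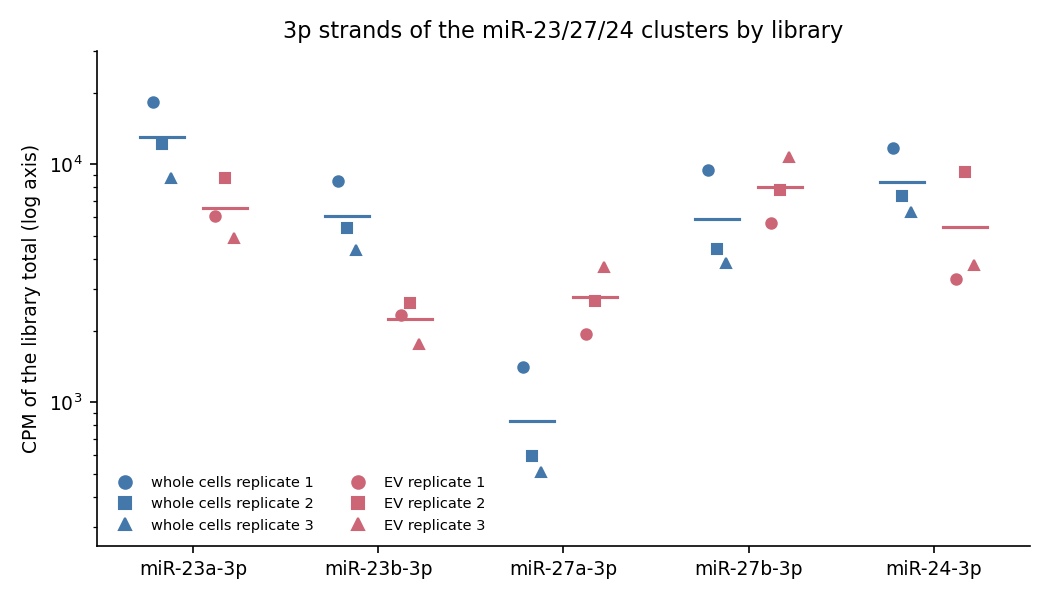
Level of the 5 3p strands in CPM of the library total (log axis) in each of the 6 libraries, with whole cells in blue, EV in red, a marker shape for each replicate and a line at the group mean. miR-23a-3p and miR-23b-3p are lower and miR-27a-3p is higher in every EV library, while the groups overlap for miR-27b-3p and miR-24-3p.

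**Figure D2:**
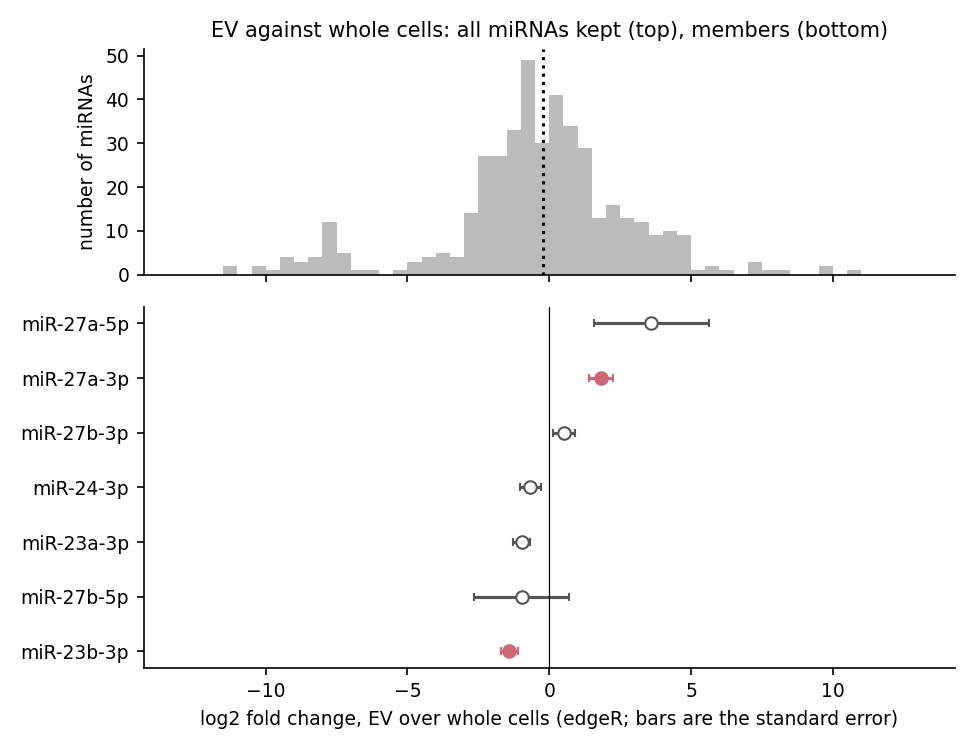
Distribution of the log2 fold change of EV over whole cells for the 430 miRNAs kept (top, number of miRNAs, median as a dotted line) and the values of the 7 members among them (bottom, bars are the standard error, filled points have an adjusted p below 0.05). miR-23b-3p at -1.41 and miR-27a-3p at 1.82 lie on opposite sides of 0, and miR-27a-5p, at 3.60, has the widest bar.

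The order of the members by mean level also differed between the sources. In whole cells the mean level was 13080 ± 4854 CPM (SD, n = 3) for miR-23a-3p and 8467 ± 2895 CPM for miR-24-3p, followed by 6093 ± 2178 CPM for miR-23b-3p, 5921 ± 3115 CPM for miR-27b-3p and 839 ± 496 CPM for miR-27a-3p. Between libraries, the spread exceeded the gap for all neighbours in this order but miR-27a-3p and the one above it. Within each whole cell library, however, miR-24-3p was below miR-23a-3p, at 0.642, 0.603 and 0.721 of its count, and above miR-23b-3p, at 1.38, 1.36 and 1.45 times its count. In EV the order was miR-27b-3p with 8060 ± 2572 CPM (SD, n = 3), miR-23a-3p with 6568 ± 1950 CPM, miR-24-3p with 5472 ± 3346 CPM, miR-27a-3p with 2774 ± 894 CPM and miR-23b-3p with 2236 ± 433 CPM. No neighbours in the EV order differed by more than their spread between libraries. Within libraries, this order held in EV replicate 3 alone. The highest member was miR-23a-3p in EV replicate 1, with 6060 CPM, and miR-24-3p in EV replicate 2, with 9327 CPM.

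All members together took 4.96%, 2.99% and 2.38% of the counts in the whole cell libraries, by replicate, and 1.95%, 3.12% and 2.49% in those of EV. These ranges overlapped (two-sided exact permutation test, p = 0.5). The miR-23 seed, miR-23a-3p and miR-23b-3p together, took 1.92% ± 0.702 (SD, n = 3) of all counts in whole cells and 0.880% ± 0.235 in EV, and the highest EV library was below the lowest of whole cells (exact permutation test, two-sided, p = 0.1, the smallest that 3 libraries against 3 can give). The miR-27 seed took 0.676% ± 0.361 in whole cells and 1.08% ± 0.347 in EV (exact permutation test, p = 0.3, n = 3 in each group). For miR-24-3p it was 0.847% ± 0.290 and 0.547% ± 0.335 (exact permutation test, p = 0.3, n = 3 in each group).

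Within the counts of the members, a split chosen after the values had been seen, the miR-23 seed held 54.2%, 58.7% and 55.0% in whole cells and 43.1%, 36.3% and 26.8% in EV. The miR-27 seed held 19.0% ± 2.72 (SD, n = 3) in whole cells and 39.0%, 33.5% and 58.1% in the EV libraries, a mean of 43.5% ± 12.9. Neither share overlapped between the groups (exact permutation test, p = 0.1 for each), and EV replicate 3, in which miR-27 held the larger part, was the farthest from whole cells. The 3 EV libraries also differed more among themselves than the whole cell libraries did. For miR-24-3p the share was 24.9% ± 1.44 (SD, n = 3) in whole cells and 20.7% ± 8.04 in EV, and the groups overlapped.

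**Figure D3:**
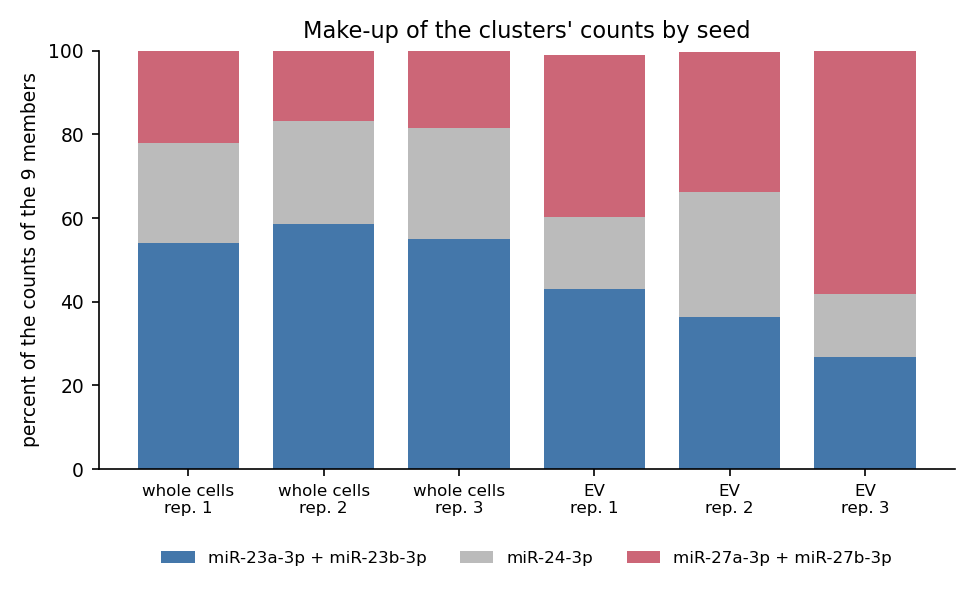
Stacked bars of the percent of the members' counts held by each seed in the 6 libraries, miR-23 in blue, miR-24-3p in grey and miR-27 in red. The blue part is 54.2% to 58.7% in whole cells and 26.8% to 43.1% in EV, and the bars stop short of 100% by the 5p strands, at most 0.893%.

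Ratios between members inside a library do not depend on how libraries are scaled, and they were computed as log2 ratios of counts with 0.5 added. Of the 8 ratios between 3p strands, 6 did not overlap between the groups. Over all 18336 pairs of miRNAs with a mean of at least 100 CPM, 53.3% did not overlap. Each of the 6 had p = 0.1 in a two-sided exact permutation test, the smallest that 3 libraries against 3 can give, and an adjusted p of 0.2 over the 12 ratios computed, so that none passed a threshold of 0.05.

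miR-27a-3p and miR-23a-3p come from neighbouring hairpins of 1 primary transcript. The count of miR-27a-3p per count of miR-23a-3p was 0.0769, 0.0489 and 0.0585 in whole cells and 0.319, 0.307 and 0.754 in EV. The EV ratio was 6.95-fold higher by geometric means, a log2 difference of 2.80, with SDs of 0.33 in whole cells and 0.73 in EV (n = 3 each). Among all the pairs above, 63.2% had a smaller absolute difference. Pairs of different hairpins within 10 kb on a strand, of which there were 173 at that level, had a median absolute difference in log2 fold change of 1.94, and miR-27a-3p with miR-23a-3p ranked 56 among them with 2.80.

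The chromosome 9 cluster gave values in the same direction. miR-27b-3p per miR-23b-3p was 1.11, 0.815 and 0.888 in whole cells and 2.42, 2.97 and 6.11 in EV, 3.79-fold higher by geometric means. Both clusters had their highest value in EV replicate 3. Without that library, the log2 difference fell from 2.80 to 2.37 for miR-27a-3p over miR-23a-3p. For miR-27b-3p over miR-23b-3p it fell from 1.92 to 1.53. Among the 173 pairs of neighbouring hairpins above, miR-27b-3p with miR-23b-3p ranked 87 by absolute difference in log2 fold change. Its difference of 1.94 was the median of those pairs, so it did not stand out among them. miR-24-3p was set against each neighbour in turn. The log2 difference between EV and whole cells was 0.23 for miR-24-3p over miR-23a-3p, with overlapping groups, and -2.57 for miR-24-3p over miR-27a-3p, with groups that did not overlap. The corresponding differences were 0.67 over miR-23b-3p, where the groups overlapped, and -1.26 over miR-27b-3p, where they did not.

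The chromosome 19 form was higher against its chromosome 9 paralogue in every EV library, for both seeds. miR-27a-3p per miR-27b-3p was 0.148, 0.135 and 0.133 in whole cells and 0.342, 0.345 and 0.345 in EV. The EV libraries thus differed by little from one another although the levels of both miRNAs varied between them, and the EV ratio was 2.48-fold higher, a log2 difference of 1.31 with SDs of 0.086 in whole cells and 0.0071 in EV (n = 3 each). miR-23a-3p per miR-23b-3p was 2.15, 2.26 and 2.01 in whole cells and 2.60, 3.34 and 2.79 in EV, 1.35-fold higher. Over the fits that left out 1 library, the log2 difference stayed between 1.28 and 1.36 for the miR-27 pair and between 0.33 and 0.52 for the miR-23 pair.

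**Figure D4:**
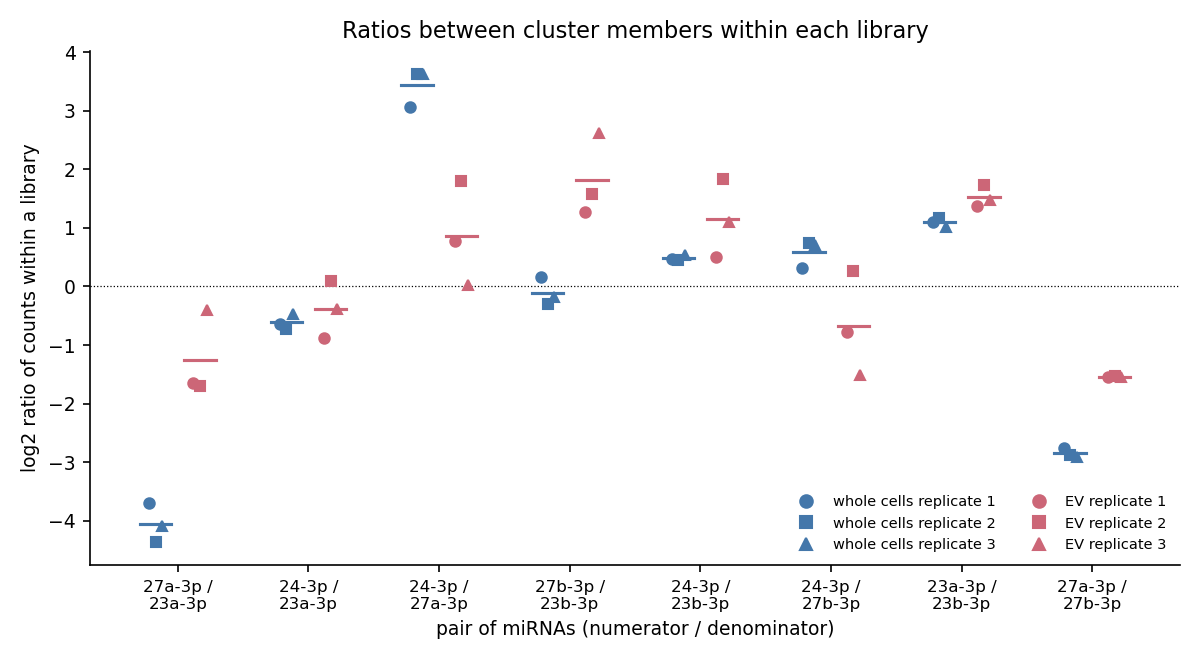
Log2 ratio of counts within each library for the 8 pairs of 3p strands, with whole cells in blue, EV in red, a marker shape for each replicate and a line at the group mean. The ratio of miR-27a-3p to miR-27b-3p is about the same in the 3 EV libraries, near -1.54, and lies above every whole cell library, which are near -2.85.

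GC content and length were not used in the choice of members. The 3p strands have 21 to 23 bases in RefSeq. GC content was 47.6% for miR-23a-3p and miR-27b-3p, 47.8% for miR-23b-3p, 52.4% for miR-27a-3p and 54.5% for miR-24-3p. A trend on GC content was also removed from each library, which was added once the values were known. With it the log2 fold change was 3.10 for miR-27a-3p (edgeR, adjusted p = 0.0182) and -0.42 for miR-23a-3p (edgeR, adjusted p = 0.377). Relative to the median of all miRNAs tested, which this fit raised to 0.36, miR-27a-3p moved from 2.05 to 2.74 and miR-23a-3p from -0.74 to -0.78. The part of GC content in these results was not tested further.

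The 5p strands were rare. They are shown as a contrast to the 3p strands of their hairpins, again with bases 2 to 8 in capitals.
miR-23a-5p: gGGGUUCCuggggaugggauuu
miR-24-2-5p: uGCCUACUgagcugaaacacag
miR-27a-5p: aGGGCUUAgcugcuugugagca
miR-27b-5p: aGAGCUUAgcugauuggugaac

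miR-27a-5p, the complement of miR-27a-3p in the duplex, had 3, 14 and 8 counts in the whole cell libraries and 191, 88 and 0 counts in EV replicates 1, 2 and 3. Per 1000 counts of miR-27a-3p this was 5.38, 5.89 and 12.5 in whole cells and 80.7, 16.1 and 0 in EV. EV replicate 3 had the most miR-27a-3p, 11632 counts, and no miR-27a-5p, where a count of 0 allows up to 0.258 per 1000. Its log2 fold change in edgeR, 3.60, had a standard error of 2.03 and an adjusted p of 0.261, without EV replicate 3 it was 4.08 with an adjusted p of 0.0211, and without EV replicate 1 it was 1.65 with an adjusted p of 0.579.

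miR-27b-5p had 23, 79 and 12 counts in whole cells and 22, 50 and 0 in EV. The groups overlapped, and edgeR gave -0.98 on the log2 scale, with a standard error of 1.68 and an adjusted p of 0.734. miR-23a-5p and miR-24-2-5p did not pass the filter and were not tested. miR-23a-5p had 0, 15 and 13 counts in whole cells and 0, 34 and 0 in EV, so that its EV counts came from a single library. miR-24-2-5p had 2 counts in whole cell replicate 1 and 0 in every other library, while miR-24-3p had 4058 to 29279 counts.

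The other products of the clusters were also rarer than the 3p strands in every library. Nearly all EV counts of miR-23b-5p were in replicate 3, where miR-27a-5p, miR-27b-5p and miR-23a-5p had 0. miR-23b-5p, which is no member, had 21, 319 and 138 counts in whole cells and 0, 1 and 259 in EV, and its difference in edgeR was -1.48 on the log2 scale, with a standard error of 1.94 and an adjusted p of 0.642. miR-24-1-5p had a count of 0 in all 6 libraries. In EV, miR-27a-5p, miR-27b-5p, miR-23a-5p and miR-23b-5p each had 34 or more counts in a library and 0 in another, while the 3p strands had at least 2367 counts in every EV library. EV replicate 3, with 0 counts of 3 of these, was also the library with the fewest miRNAs counted, 329, and the part of this in the 5p values was not tested.

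**Figure D5:**
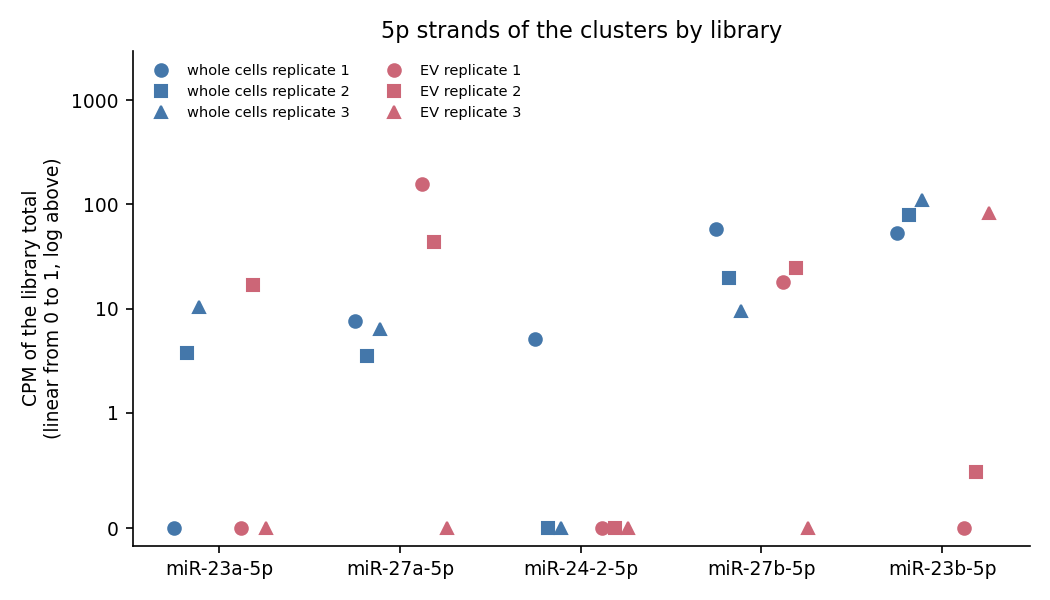
Level of 5 5p strands of the clusters in CPM of the library total (linear from 0 to 1, log above) in each library, with whole cells in blue, EV in red and a marker shape for each replicate. miR-27a-5p reaches 156 CPM in EV replicate 1 and is at 0 in EV replicate 3, whereas miR-23b-5p is at 0 in EV replicate 1 and at 82.6 CPM in EV replicate 3.

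The seed relatives gave no call. miR-23c had 7, 64 and 23 counts in whole cells and 5, 20 and 22 in EV, and its CPM was lower in every EV library (log2 fold change -1.35, standard error 0.90, adjusted p = 0.337 from edgeR). miR-23c is close in sequence to miR-23b-3p but differs from it within the strand, so only shorter reads or reads with a mismatch fit both. How many of the few miR-23c counts came from such reads was not tested. miR-128-3p had 1520, 1433 and 1264 CPM in whole cells and 1801, 1870 and 1747 CPM in EV, above whole cells in each (log2 fold change 0.37, standard error 0.28, adjusted p = 0.408 from edgeR).

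Of 14 other miRNAs linked to vessel growth, all passed the filter, 4 rose and 5 fell in EV, against 14.7% higher and 14.0% lower over all miRNAs kept. Their median log2 fold change was 0.57. Among those counted as rising, miR-126-5p reached the filter through the EV libraries alone. Its rise was thus fixed in advance, as was the fall of miR-296-5p given below. miR-21-5p, at 3.11, and miR-126-3p, at 3.45, both with roles in vessel growth, were among those that rose (edgeR, adjusted p = 0.00448 and 0.00661). Those that fell included miR-221-3p, at -1.40, and miR-92a-3p, at -2.51, which restrain vessel growth (edgeR, adjusted p = 0.0172 and 0.0107). They also included miR-210-3p, at -2.18, and miR-296-5p, which was at 0 in every EV library, both known to promote it (edgeR, adjusted p = 0.0386 and 0.0140). As miR-296-5p reached the filter through the whole cell libraries alone, a fall was fixed in advance for it.

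The profile most like that of miR-23b-3p over the 6 libraries was that of miR-221-3p, with Pearson's r of 0.994 on log2(CPM + 4), followed by miR-431-5p and miR-409-5p. For miR-23a-3p and for miR-24-3p the leading miRNAs included miR-22-3p and miR-132-3p, with r between 0.936 and 0.966. For miR-27a-3p they were miR-299-3p with 0.980, miR-379-5p with 0.966 and miR-16-5p with 0.955. For miR-27b-3p they were miR-337-5p with 0.969, miR-7-5p with 0.962 and miR-218-5p with 0.961. These were among the 3 highest of 187 candidates for each member, all with a mean of at least 100 CPM, over 6 libraries that fall into 2 groups and share their totals, and r is given as a measure of likeness with no test. Between members, r was 0.961 for miR-23a-3p with miR-23b-3p, 0.848 for miR-27a-3p with miR-27b-3p, and -0.51 for miR-23a-3p with miR-27a-3p.

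Some markers of blood and serum moved in the same direction as miR-27a-3p. Of 8 such miRNAs, 4 passed the filter and 3 of these were called higher in EV, against 14.7% of all miRNAs kept. Of the 3, miR-451a and miR-142-3p reached the filter through the EV libraries alone, so a rise was fixed in advance for them. The summed level of all 8 was 172 to 1174 CPM in whole cells and 1718 to 2403 CPM in EV. miR-486-5p made up the larger part in every library and was not called, at 0.78 on the log2 scale (edgeR, adjusted p = 0.487). miR-451a, miR-142-5p and miR-144-3p were not counted in any library of whole cells. The neuron markers miR-182-5p and miR-183-5p, given above, were higher in EV too. The part of both lists in the result for miR-27a-3p was not tested.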

How the data were processed

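The authors trimmed adapters with cutadapt and aligned the reads. The deposited raw counts per mature miRNA came from featureCounts 1.5.0-p1 with strand setting 1. Bowtie 1 and release 20 of miRBase are given in the file headers, against Bowtie2 and a later release in the methods. No step that removes PCR copies was given. Counting by strand kept apart miRNAs annotated on opposite strands. Samples were grouped by the fraction in their labels. No library was a copy of another (chi-square over its degrees of freedom was at least 41.9 for each pair). The members, gene lists and tests were chosen with earlier results of these data known. Named miRNAs were all members, their cluster and seed relatives, the 3 closest profiles of each 3p strand, and list members cited as examples, which were chosen after their values had been seen.

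The main test was edgeR 4.0.16 in R 4.3.3 with TMM factors, on miRNAs that reached 5 CPM in 3 or more libraries. The standard errors given for edgeR are approximate. They were derived as the absolute log2 fold change over the square root of F, the statistic of that test. DESeq2 1.42.0 was an alternative, and both were run on simulated data. The simulated dispersion was below the common dispersion of these libraries, 0.918, so the simulation cannot show the error rate of either tool here. Other alternatives covered scaling, filter, leaving out each library, equal depth by thinning, thresholds, denominator, the count added to ratios and GC content of the mature sequence (known for 390 of 430 miRNAs). Shares and ratios were compared by two-sided exact permutation over 20 splits with scipy 1.17.1. Figures were drawn with matplotlib 3.10.9.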

Additional observations from a re-analysis of the deposited data

How the results depend on the processing

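No paired analysis was possible because the passages differ between all samples and the labels give no replicate numbers. The number of miRNAs at an adjusted p below 0.05, 123, was 240 without the filter, 31 at a threshold of 0.01 and 74 to 143 with a library left out, lowest without whole cell replicates 2 (74) and 3 (81). Past the study's limits, 25 became 72 with DESeq2, 38 with upper-quartile factors, 45 without the filter, 69 with 5 CPM required in every library of a group, 12 with the GC trend removed, 93 at an adjusted p below 0.05, and 0 to 31 with a library left out (16, 7 and 0 without whole cell replicates 1, 2 and 3, and 11 and 0 without EV replicates 1 and 2). Where it was 0, 121 and 169 miRNAs had an unadjusted p below 0.05 in edgeR. Members called, 2, were 1 with upper-quartile factors and with the GC trend removed, and 0 to 2 with a library left out. The log2 fold change of miR-23a-3p passed with DESeq2 (-1.22), RLE factors (-1.22) and no filter (-1.20). That of miR-23b-3p did not pass with the GC trend removed (-0.81), nor without whole cell replicate 2, and ran from -1.63 to -1.38 with a library left out. That of miR-24-3p reversed with the GC trend removed (0.71) and ran from -1.25 to -0.53 with a library left out. That of miR-27a-3p did not pass with RLE (1.53) or upper-quartile factors (1.74), nor in 4 of 6 fits with a library left out, and ran from 1.39 to 2.08. RLE factors moved the median of all miRNAs from -0.23 to -0.41 and the GC fit, on 390 miRNAs, to 0.36. The cause of these changes was not tested, beyond the smaller number of samples or of miRNAs. Single libraries decided the size of the shares. Without whole cell replicate 1, EV minus whole cells, in percentage points, went from -1.04 to -0.653 for the miR-23 seed, from -0.299 to -0.135 for miR-24-3p and from -0.925 to -0.167 for all members, which was -1.46 without whole cell replicate 3. For the miR-27 seed, 0.407 became 0.615 without whole cell replicate 1 and 0.225 without EV replicate 3. For miR-24-3p it was -0.191 without EV replicate 1 and -0.492 without EV replicate 2. The log2 ratio of miR-24-3p to miR-23a-3p, 0.23, was -0.012 without EV replicate 2 and 0.47 without EV replicate 1, and that of miR-24-3p to miR-23b-3p, 0.67, ran from 0.32 without EV replicate 2 to 0.99 without EV replicate 1.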
